A study of Homo sapiens with 6 samples.

Results

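Peaks of serine 5-phosphorylated RNA polymerase II (Pol II) were compared between LNCaP cells given the solvent DMSO and LNCaP cells given 1 µM BMH-21 for 6 h. LNCaP is an androgen-responsive human prostate cancer line, and BMH-21 is a DNA-intercalating small molecule that inhibits RNA polymerase I. All listed peaks of the 2 Pol II libraries were taken, 28798 from the DMSO list and 11540 from the BMH-21 list, together 40338 of the 84817 peaks in the 4 lists of the series. Chromatin was fixed with formalin, sonicated and precipitated with the 4H8 antibody, which the labels describe as directed against the phosphorylated repeat. With 1 library per treatment there was nothing to test a difference against, and no p-value is given. Ranges in brackets after a share are 95% Clopper-Pearson intervals (exact). They cover only the counting of peaks, and neighbouring peaks of 1 locus are not independent. Read depth is unknown, because the lists hold peaks and no counts.

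The largest subunit of Pol II carries a long tail of repeated heptapeptides. The kinase of the general factor TFIIH phosphorylates serine 5 of these repeats as the polymerase leaves a promoter, and this form of Pol II is typically most abundant at gene starts and over the first part of transcribed genes. A ChIP signal of the phosphorylated form depends both on where Pol II is and on how its tail is phosphorylated, and these cannot be told apart here.

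Both lists leave out many of the peaks that were first numbered, 48.1% of the DMSO numbers and 77.0% of the BMH-21 numbers, and no position is shared between them. A place without a listed peak is therefore not shown to lack Pol II. Positions are on hg19, counted from 1, and a distance is the number of free base pairs between the edges of 2 peaks. Gene names are locus labels from general knowledge of hg19, since the gene table used was on GRCh38.p14. From that RefSeq table came gene lengths and, where a promoter entry matched, the strand, and no position was taken from it. Counts of genes and shares of gene length below rest on these labels, and counts of peaks and runs do not. Each labelled gene was on the chromosome of its run. The presence of prostate marker genes at peaks was not analysed here.

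The widest listed peak, in the BMH-21 list, lay on chromosome 21 at 17783740 to 17916828, within the locus of MIR99AHG, a long noncoding RNA gene of 561 kb. Within its RefSeq span lie 3 microRNA genes with a listed 5p product, given here to show what the locus encodes, with the seed (bases 2 to 8) in capitals. The 3 seeds differ from one another.
hsa-miR-99a-5p: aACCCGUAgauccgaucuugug
hsa-let-7c-5p: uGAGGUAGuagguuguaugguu
hsa-miR-125b-5p: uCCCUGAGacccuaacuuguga
These microRNAs are processed from transcripts of their host locus. Whether the peak reaches each of them was not determined, as the sequences come from GRCh38.p14. The peak was 133 kb wide with an authors' score of 164.12, and the nearest DMSO peak was 102 kb away, at the higher coordinate.

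BMH-21 peaks ranged from many narrow peaks to a small set of wide peaks, and the wide ones mostly lay farther from DMSO peaks. From 200 bp up, each wider class held fewer BMH-21 peaks, without a second rise. How far widths depend on read depth or caller settings, which are unknown, was not tested. Among the 11540 BMH-21 peaks, 7069 (61.3%, interval 60.4 to 62.1) were narrower than 300 bp, against 1090 of 28798 DMSO peaks (3.78%, interval 3.57 to 4.01). From 300 up to 1000 bp the order was the other way, with 34.0% of BMH-21 and 88.5% of DMSO peaks. At 1000 bp or more the lists held 553 BMH-21 peaks (4.79%) and 2220 DMSO peaks (7.71%). This order turned among peaks scored at or above the DMSO median (81.02), with 21.5% of BMH-21 and 15.1% of DMSO peaks. That cutoff lies in the 4th of 5 equal BMH-21 groups by rising score (64.76 to 83.51). It thus kept a smaller part of the BMH-21 list than of the DMSO list. Outside runs (defined below) the shares were 0.706% for BMH-21 and 6.74% for DMSO. These 553 peaks, under 5% of the list by number, made up 32.0% of the base pairs covered by BMH-21 peaks, and the 2220 wide DMSO peaks made up 18.3% of the DMSO covered length. A single BMH-21 peak, the chromosome 21 one given above, supplied 133 kb of the 406 kb under BMH-21 peaks of 10 kb or more.

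The ratio of BMH-21 to DMSO peak number was not uniform across widths. It was 6.03 for peaks of 200 up to 300 bp, 0.228 from 300 up to 500 bp and 0.0703 from 500 up to 1000 bp. It then climbed with width, to 0.161 from 1 up to 2 kb and 0.934 from 2 up to 5 kb. Above that the DMSO list held 1 peak, of 5950 bp, while the BMH-21 list held 38 peaks of 5 up to 10 kb and 18 of 10 kb or more. Counts in the lowest class, under 200 bp, were 509 for BMH-21 and 2 for DMSO.

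**Figure D1:**
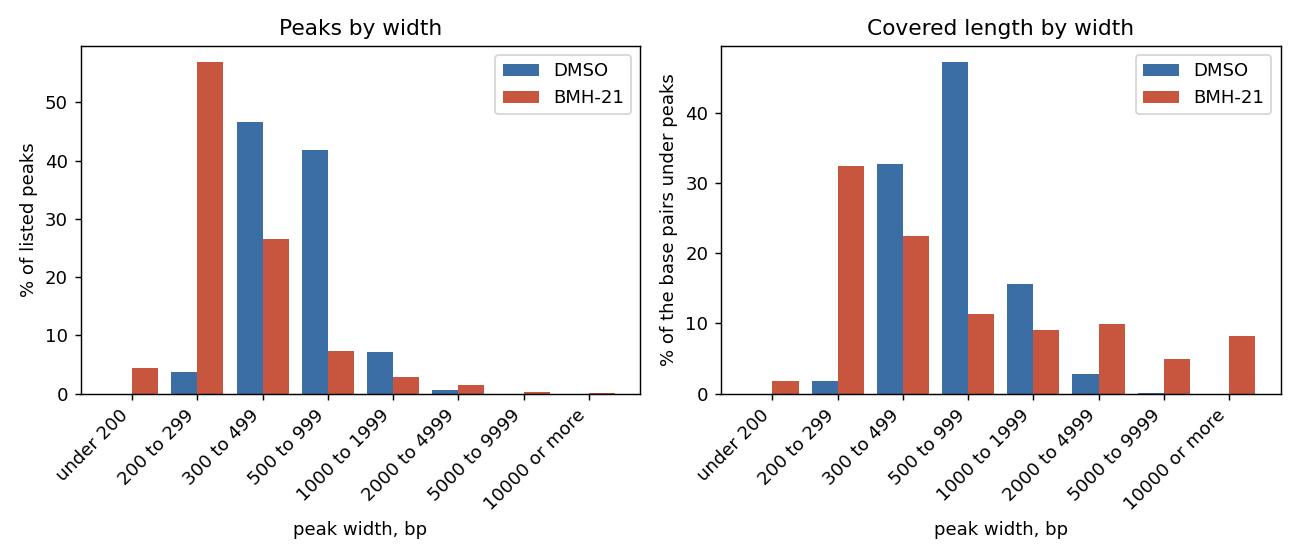
Share of listed peaks (left, %) and share of the base pairs under peaks (right, %) by peak width in bp for the DMSO and BMH-21 Pol II lists, 1 library each. The BMH-21 bars are highest at 200 up to 300 bp (56.8% of peaks), and from 2000 bp upward its share of covered length exceeds that of DMSO.

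The wide BMH-21 peaks were concentrated at few places. Joined where less than 100 kb lay between them, the 553 peaks formed 62 loci on 19 chromosomes. The 17 loci with the most covered length, a number chosen after the values were seen, held 455 of the 553 peaks (82.3%) and 87.6% of their length. The first of them was the NEDD4L locus on chromosome 18, with 69 wide peaks over 159 kb of covered sequence. NEDD4L encodes a ubiquitin ligase of the HECT class that acts on membrane channels and transporters. The third of the 17 loci was the single 133 kb peak of chromosome 21. At the other end, 27 of the 62 loci held a single wide peak.

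The score, the peak caller's own value per peak, was higher in wider classes of each list from 200 bp up to 5 kb. In the DMSO list its median went from 53.36 at 200 up to 300 bp through 256.28 at 1 up to 2 kb to 524.11 at 2 up to 5 kb. In the BMH-21 list the medians of the same classes were 55.68, 328.24 and 791.69, and the 18 peaks of 10 kb or more had a median of 3100. Peaks under 200 bp did not follow this order, with medians of 59.45 for BMH-21 and 93.585 for the 2 DMSO peaks, nor did the 133 kb BMH-21 peak, with 164.12. The value 3100 was also the highest score of the 10 kb or more class and the top score at several loci, as at NEDD4L and PPP3CA. Scores near this value may be capped, although the highest BMH-21 score was 3120.65. Scores of the 2 lists may be on different scales, so a cutoff applied to both may not keep like peaks. Where scores of paired peaks are printed below, they are not compared.

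A typical BMH-21 peak lay nearer to a DMSO peak than a typical DMSO peak lay to a BMH-21 peak. The median distance from a BMH-21 peak to the nearest DMSO peak was 9731 bp, close to its median distance to another BMH-21 peak (8971 bp). For DMSO peaks the median distance was 24009 bp to a BMH-21 peak and 3458 bp to another DMSO peak. The DMSO list is longer, which by itself shortens distances to it. The BMH-21 to DMSO median became 67644 bp with scores at or above the DMSO median and 20576 bp for BMH-21 peaks of at least 300 bp. It was 3808 bp with each DMSO neighbour counted once, which keeps only its closest BMH-21 peak and so favours short distances. Of the BMH-21 peaks, 423 (3.67%) lay within 100 bp of a DMSO peak, 2218 (19.2%, interval 18.5 to 19.95) within 1 kb and 5834 (50.6%) within 10 kb. The share within 1 kb was 6.43% with scores at or above the DMSO median. At the far end, 1815 BMH-21 peaks were more than 100 kb from any DMSO peak.

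Exact contact between the lists occurred at 5 places, where the last base of one peak was followed by the first base of the other. On chromosome 8 the BMH-21 peak at 22912295 to 22912574 was followed by a DMSO peak from 22912575. On chromosome 10 the BMH-21 peak at 13358399 to 13358622 was followed by a DMSO peak from 13358623. On chromosomes 11, 12 and 20 the DMSO peak came first, and the BMH-21 peaks began at 64541315, 109915798 and 1324260.

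Close BMH-21 peaks were split about evenly between the 2 sides along the reference strand. Of the peaks within 1 kb, 1091 were at the lower coordinate of the pair, 1126 at the higher coordinate and 1 was equally far from 2 DMSO peaks. The lower side thus made 49.2% (interval 47.1 to 51.3). The share was 48.9% within 100 bp (interval 44.1 to 53.8) and 50.01% within 10 kb (interval 48.7 to 51.3). Farther out the sides were uneven, with 3034 of 5706 peaks at 10 kb or more at the lower coordinate (53.2%, interval 51.9 to 54.5). Without peaks that belong to runs this became 2218 of 4365 (50.8%, interval 49.3 to 52.3), so the side shares lay closer together outside runs. Within a run many peaks can share 1 nearest DMSO peak. Sides by gene strand were not computed, as no hg19 annotation was used.

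**Figure D2:**
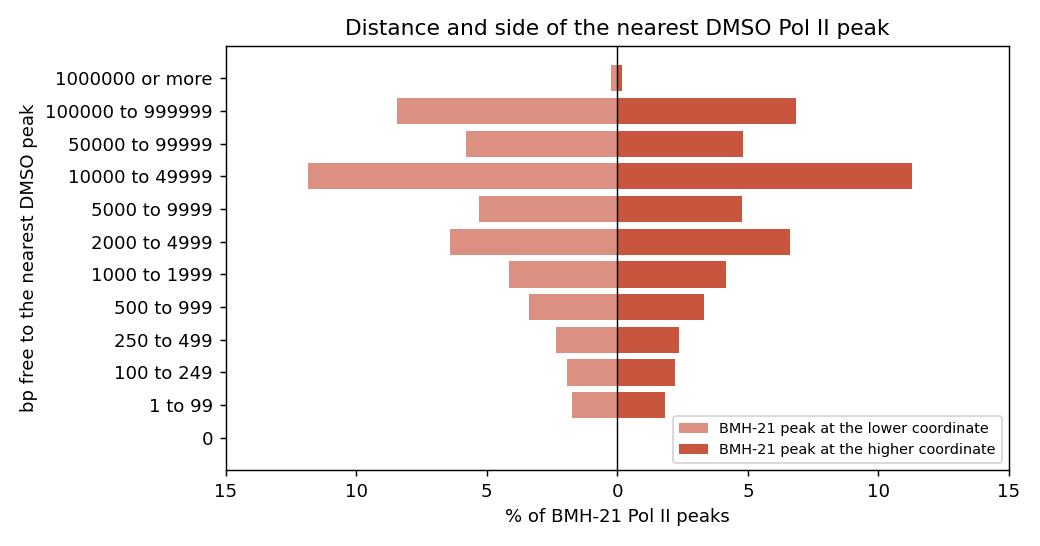
Share of the 11540 BMH-21 Pol II peaks (%, x axis) by free distance in bp to the nearest DMSO Pol II peak (y axis), split by whether the BMH-21 peak lies at the lower (left, pale) or higher (right, dark) coordinate. Both sides hold like numbers within 1 kb, while at 50 up to 100 kb the left bar stands for 667 peaks and the right bar for 556.

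Within close pairs the BMH-21 peak was usually the narrower one. In 2083 of the 2218 pairs (93.9%) it was narrower than its DMSO neighbour, with median widths of 257 and 511 bp. These medians are near those of the 2 lists as a whole. DMSO neighbours numbered 2051, of which 154 were the nearest peak of 2 or more BMH-21 peaks. On both sides within 1 kb, 361 BMH-21 peaks had a DMSO peak, and 119 DMSO peaks had a BMH-21 peak.

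The pairs with the highest BMH-21 score among those at most 250 bp apart are given as examples. On chromosome 11, the BMH-21 peak at 502467 to 503044 (score 200.51) lay 75 bp before the DMSO peak at 503120 to 503683 (151.53). On chromosome 15, the BMH-21 peak at 69076767 to 69077429 (165.19) lay 6 bp after the DMSO peak at 69076215 to 69076760 (68.64). The next were on chromosome 5 at 150085681 to 150086239, 58 bp after a DMSO peak, on chromosome 19 at 36793223 to 36793977, 61 bp after one, and on chromosome 2 at 193048275 to 193048939, 83 bp after one. The chromosome 2 pair belongs to the TMEFF2 locus described below. In each of these 5 pairs, which were picked for a high score, the BMH-21 peak was the wider one, unlike in most pairs.

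Closeness to the other treatment differed with width more in the BMH-21 list than in the DMSO list. The share of BMH-21 peaks within 1 kb of a DMSO peak was 13.8% in the 509 peaks under 200 bp (interval 10.9 to 17.1). Above that width, over all peaks, it went down class by class. It was 22.2% at 200 up to 300 bp (interval 21.2 to 23.3), 19.5% at 300 up to 500 bp, 10.5% at 500 up to 1000 bp (interval 8.52 to 12.8) and 0.917% at 1 up to 2 kb (interval 0.190 to 2.66). None of the 226 BMH-21 peaks of 2000 bp or more lay that close (upper bound 1.62%). Among DMSO peaks, the share within 1 kb of a BMH-21 peak lay between 8.06% (300 up to 500 bp) and 9.82% (1 up to 2 kb) in the 5 classes from 200 bp up to 5 kb. The median distance of wide BMH-21 peaks, of 1000 bp or more, to a DMSO peak was 83777 bp, against 6514 bp for those under 300 bp. Outside runs, the share was 21.8% under 300 bp (interval 20.8 to 22.8) and 21.3% from 300 up to 1000 bp (interval 19.8 to 22.8). In runs these shares were 17.8% and 6.20%, and 57.0% of peaks of 500 up to 1000 bp were in runs. Below 1000 bp the shares outside runs were thus close to one another. Of the wide BMH-21 peaks outside runs, 2 of 69 (2.90%, interval 0.353 to 10.1) lay within 1 kb. How peaks were selected for the lists is not stated, and its part in this relation was not tested.

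Only 3 of the 553 wide BMH-21 peaks lay within 1 kb of a DMSO peak. They were on chromosome 5 at 107657904 to 107659046, in the FBXL17 locus, on chromosome 16 at 33879174 to 33880354 and on chromosome 21 at 9948876 to 9950493. The last of these had 29 bp to the DMSO peak. Those on chromosomes 16 and 21 lay outside runs and scored 51.83 and 62.93, near the lowest listed score of 50. Wide BMH-21 peaks had a median score of 106.29 outside runs and 499.965 in runs. Whether those outside runs lie in repeated or duplicated sequence was not examined.

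**Figure D3:**
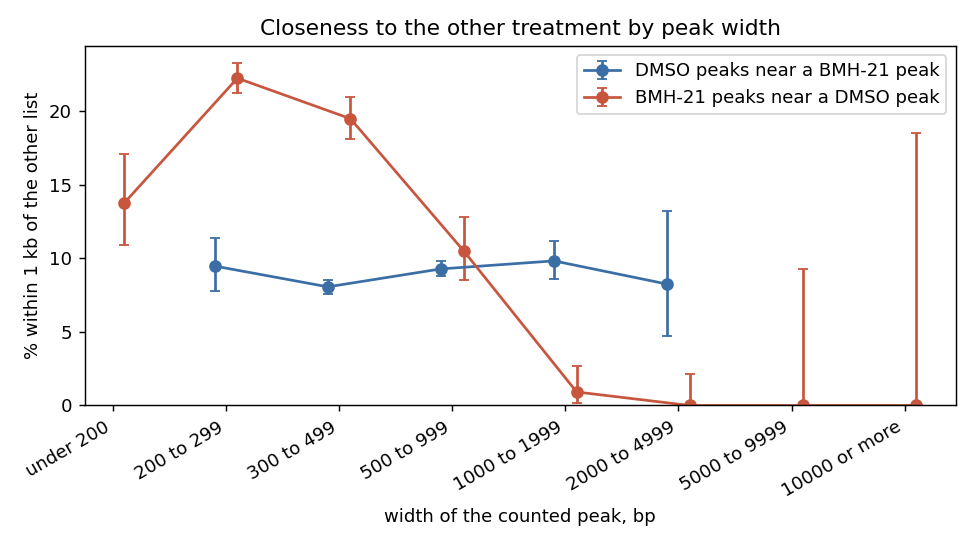
Share of peaks within 1 kb of a peak of the other list (%, y axis) by the width of the counted peak in bp (x axis), for width classes of 10 or more peaks, with exact 95% intervals over peaks. The BMH-21 points are highest at 200 up to 300 bp (22.2%) and at 0 from 2000 bp on, and the DMSO points lie between 8.06% and 9.82%.

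By score, the share near the other treatment was lowest in the highest-scored peaks of both lists. When BMH-21 peaks were split into 5 equal groups by score, the share within 1 kb of a DMSO peak was between 20.2% and 22.1% in the lower 4 groups and 11.1% (interval 9.84 to 12.4) in the highest, where the median width was 523 bp. This highest BMH-21 group, from a score of 83.54 up, takes in many peaks of runs. The 484 wide BMH-21 peaks in runs had a median score of 499.965, and 1 of them lay within 1 kb of a DMSO peak. Shares by score outside runs were not computed, so score and run membership were not separated. For DMSO peaks the highest group stood at 7.40% (interval 6.73 to 8.10), and the lower 4 between 8.92% and 9.39%.

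Chromosomes differed in how close the lists lay. The share of BMH-21 peaks within 1 kb of a DMSO peak had a median of 19.6% over 24 chromosomes. It was highest on chromosome 19, at 31.5% (interval 27.6 to 35.7), where the median distance was 2582 bp. The lowest share was that of chromosome 18, at 7.78% (interval 5.19 to 11.1), and chromosome 21 was next with 8.38% (interval 5.73 to 11.7). Outside runs, chromosomes 18 and 21 stood at 15.9% (interval 10.7 to 22.3) and 20.2% (interval 13.6 to 28.1), and chromosome 19 at 31.8%. The only BMH-21 run of chromosome 18 was in the NEDD4L locus, and 3 of the 4 on chromosome 21 were in NCAM2. Chromosome Y, with 80 BMH-21 peaks, went the other way, with overlapping intervals. Its share was 23.8% (interval 14.9 to 34.6), and 10.2% (interval 3.82 to 20.8) without its 1 BMH-21 run. That run was interlaced with DMSO peaks in the USP9Y locus.

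BMH-21 peaks stood next to one another at a share above their share of all peaks. BMH-21 peaks made up 28.6% of the merged lists, and a BMH-21 peak was followed along the chromosome by another BMH-21 peak in 4946 of 11527 cases (42.9%, interval 42.0 to 43.8). After a DMSO peak, a BMH-21 peak came next in 6582 of 28787 cases (22.9%). The gap between 2 consecutive BMH-21 peaks with no DMSO peak between them had a median of 2110 bp, against 9870 bp from a BMH-21 peak to a following DMSO peak.

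Gaps within a list had a wide range. The median gap was 12231 bp between consecutive DMSO peaks and 25871 bp between consecutive BMH-21 peaks. With scores at or above the DMSO median (81.02) the order turned, with 32789 bp for DMSO and 9976 bp for BMH-21. That cutoff kept a smaller part of the BMH-21 list than of the DMSO list, and the scores may be on different scales. Gaps of 100 bp or less made up 4.97% of DMSO gaps and 6.58% of BMH-21 gaps.

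Joined at up to 1 kb, the 2 lists formed 30286 patches. DMSO peaks alone made 20892 of them, BMH-21 peaks alone 7424, and 1970 (6.50%) held both. The commonest mixed patch, 1034 cases, was 1 peak of each list, with a median length of 1206 bp. In 259 patches a single BMH-21 peak lay between DMSO peaks, and in 54 a single DMSO peak lay between BMH-21 peaks.

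Runs, here 10 or more peaks of 1 list with no gap over 10 kb, numbered 260 in the DMSO list and 54 in the BMH-21 list. They differed in how fully they were covered. The share of a run's length under its own peaks had a median of 24.5% in DMSO runs (range 8.67 to 77.9) and 27.6% in BMH-21 runs (range 5.23 to 99.4), but it passed 50% in 5 of 260 DMSO runs and 23 of 54 BMH-21 runs. The 5 DMSO runs were short, between 17.5 and 37.9 kb. The fullest was on chromosome 16 at 70301966 to 70319460, with 77.9% under 12 peaks. Of the runs of 100 kb or more, 22 were in the DMSO list and 9 in the BMH-21 list.

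BMH-21 runs fell into dense and open ones, split here at a top score of 1000, a value chosen with the data known. The 20 dense runs were 59.7% to 99.4% covered, and the median over runs of their median gap was 105.5 bp. The other 34 were 5.23% to 66.0% covered, and the same median was 1576 bp. Several open runs without a gene label lay close together, on chromosome 1 between 143442689 and 148328514 and on chromosome 5 between 68914592 and 70577356. Whether runs of either kind lie in repeated or duplicated sequence was not examined. Dense runs held 8 DMSO peaks in 0.296 Mb free of BMH-21 peaks (27.0 per Mb), open runs 127 in 1.20 Mb (106 per Mb). For comparison, DMSO runs held 918 BMH-21 peaks in 10.0 Mb free of DMSO peaks (91.4 per Mb). As the lists share no position, a DMSO peak (median width 498 bp, minimum 164 bp) must fit in a gap between BMH-21 peaks. The typical gap of dense runs, 105.5 bp, is shorter than that, so their low rate is in part fixed by how the lists are built.

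**Figure D4:**
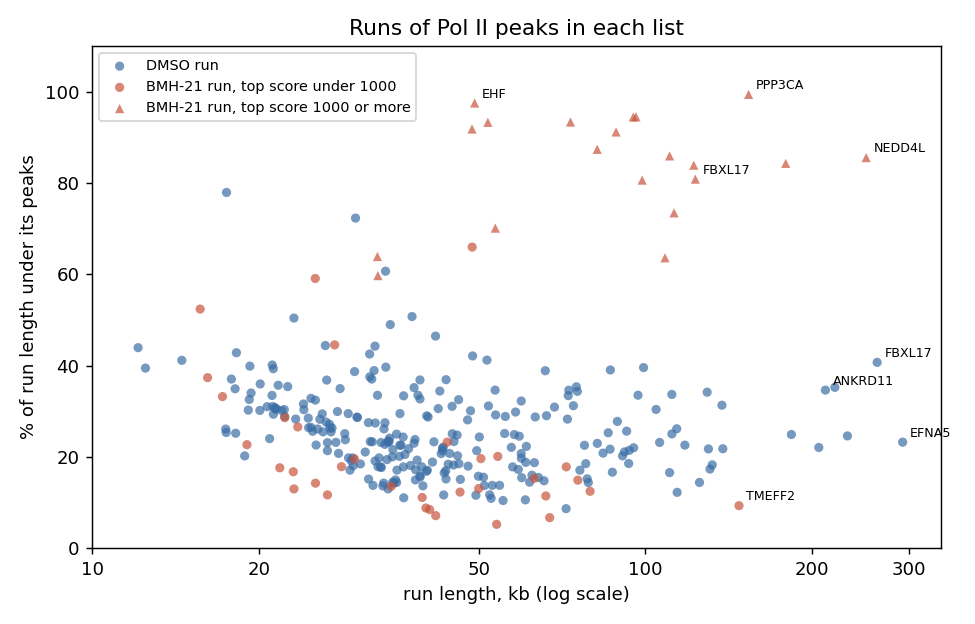
Length in kb (x axis, log scale) and share of length under the run's own peaks (%, y axis) of each run of Pol II peaks. DMSO runs are circles in blue, BMH-21 runs are red circles (top score under 1000) or red triangles (1000 or more). The triangles lie between 59.7% and 99.4%, and DMSO runs of 100 kb or more reach at most 40.7%.

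Of the 20 dense BMH-21 runs, 18 were in the loci of 16 genes, with RefSeq lengths of 42.2 to 545 kb and a median of 218 kb, 15 of them at least 100 kb long. The other two, on chromosome 14 at 19672922 to 19705716 and chromosome 15 at 20861452 to 20894312, were not given a gene. Only 8 of the 34 open BMH-21 runs and 22 of the 260 DMSO runs were given one, so gene lengths were not compared between kinds of run, and a run this long leaves little room for a short gene. The base pairs under BMH-21 peaks in these runs came to between 7.49% and 114% of the gene's length (median 40.5%). For EHF, an Ets-family transcription factor of epithelia, the run of 49.2 kb was longer than the gene, of 42.2 kb, and was 97.5% covered by 10 peaks. For PLPP1, a lipid phosphatase, the run of 122 kb was also longer than its gene, of 110 kb.

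The 6 BMH-21 runs with the most peaks were in the loci of NEDD4L (177 peaks over 251 kb), NCAM2 (151 over 180 kb), PRKD1 (92 over 113 kb), PLPP1 (86 over 122 kb), MYO6 (79 over 109 kb) and ZBTB16 (72 over 98.7 kb). NCAM2 encodes a neural cell adhesion molecule, PRKD1 protein kinase D1, MYO6 the minus-end-directed motor myosin VI and ZBTB16 the zinc finger repressor PLZF. All 6 held 0 listed DMSO peaks, which could lie only in gaps between BMH-21 peaks. These 6 runs were 85.5%, 84.3%, 73.4%, 83.9%, 63.6% and 80.6% covered, in that order.

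How far the nearest DMSO peak lay from these dense runs varied between loci. At PPP3CA, the catalytic subunit of the phosphatase calcineurin, 18 BMH-21 peaks covered 99.4% of 154 kb, and the nearest DMSO peaks were 459 kb below and 697 kb above. For NEDD4L they were 8.47 kb below and 49.5 kb above. For TBL1XR1, a subunit of the NCoR corepressor complex, a DMSO peak lay 0.404 kb below the run and the next 279 kb above. For KDM6A, a histone H3 lysine 27 demethylase, they were 325 kb below and 19.9 kb above. A DMSO peak was within 10 kb of the ends or inside in 10 of the 20 dense runs and 28 of the 34 open ones.

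Other dense loci followed the same form with fewer peaks. At PRKACB, a catalytic subunit of protein kinase A, 17 peaks covered 91.8% of 48.6 kb. At KCNN2, a calcium-activated potassium channel gene, 50 peaks covered 94.5% of 96.2 kb. At ST3GAL1, a sialyltransferase gene, 49 peaks covered 87.4% of 81.9 kb, and at RASSF3 47 peaks covered 93.3% of 73.3 kb. NCAM2 had 2 further runs along the gene, on chromosome 21 at 22587153 to 22635805 (43 peaks, 66.0% covered, top score 818.98 and so among the open runs) and 22828965 to 22880900 (25 peaks, 93.3%). The last of these held 1 DMSO peak and lay 40 bp above another. PRKD1 had a second run at 30296283 to 30406954 on chromosome 14 (47 peaks, 85.9%). Both PRKD1 runs held 0 DMSO peaks.

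After the chromosome 21 peak given above, the widest BMH-21 peaks were in 2 of these loci. The second was in FBXL17, on chromosome 5 at 107625397 to 107657894 (32.5 kb, score 2225.08). The next were in PPP3CA on chromosome 4, at 102002300 to 102027638 (25.3 kb), 102063231 to 102086207 (22.98 kb) and 102028046 to 102045776 (17.7 kb). The widest DMSO peak was also in FBXL17, at 107499023 to 107504972 (5.95 kb, score 895.28). It was followed by peaks on chromosome 6 at 58775256 to 58780200 (4.95 kb), chromosome 19 at 23510022 to 23514845 (4.82 kb), chromosome 5 at 107351048 to 107355600 (4.55 kb, again in FBXL17) and chromosome 17 at 44252901 to 44257378 (4.48 kb).

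The DMSO runs with the most peaks were made of many separate peaks, and 4 of the 6 were about as long as their gene. The 6 with the most peaks were in ANKRD11, a chromatin regulator (116 peaks), FBXL17, an F-box protein of ubiquitin ligases (109), EFNA5, an ephrin ligand (102), GPR158, an orphan receptor (99), ZMIZ1, a PIAS-like coregulator (94), and GRB10, an adaptor of insulin receptor signalling (73). The run length was 99.3% of the RefSeq gene length for EFNA5 (292 of 294 kb), 95.0% for ANKRD11, 93.7% for ZMIZ1 and 101% for GRB10. It was 50.2% for FBXL17 and 51.6% for GPR158. These runs were 22.1% to 40.7% covered, with median peak widths of 514 to 761 bp, and held between 7 (GPR158) and 27 (EFNA5) BMH-21 peaks.

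FBXL17 carried runs of both treatments that did not overlap, although BMH-21 peaks were also interspersed in its lower DMSO run. The strand of FBXL17 is minus, so the start of the gene is at the higher coordinates. On chromosome 5 from 107196553 to 107459173, the part farthest from the start, 109 DMSO peaks covered 40.7% and 18 BMH-21 peaks 2.28%. Over the following 82.6 kb, 8 DMSO peaks covered 18.4% and the BMH-21 list had 0 peaks. From 107541786 to 107664967, 67 BMH-21 peaks covered 80.8% and 3 DMSO peaks 2.24%. After 13.6 kb with 2 DMSO peaks, the region at 107678613 to 107707650 held 10 DMSO peaks (29.5%) and 3 BMH-21 peaks (2.94%). The dense BMH-21 run thus lay between 2 DMSO runs. Within it, DMSO peaks could lie only in gaps between BMH-21 peaks (median 104 bp), so its low DMSO share is in part fixed by how the lists are built.

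PPFIA2, which encodes a liprin scaffold protein and is also on the minus strand, had the same order in part. Its DMSO runs were on chromosome 12 at 81645236 to 81675352 (10 peaks, 28.7% covered) and 81720300 to 81765053 (18 peaks, 31.1%). The BMH-21 run was at 81889224 to 81942795 (44 peaks, 70.1%), 124 kb from the nearer DMSO run toward the gene's start, with 0 DMSO peaks inside. DMSO peaks could lie there only in gaps between BMH-21 peaks, of median 271 bp. On chromosome 6, neighbouring genes rather than parts of 1 gene differed. The SUMO protease gene SENP6 had a DMSO run at 76322976 to 76415520 (31 peaks, 25.6%), and the first BMH-21 run of the MYO6 locus began 40.3 kb above the end of that run.

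**Figure D5:**
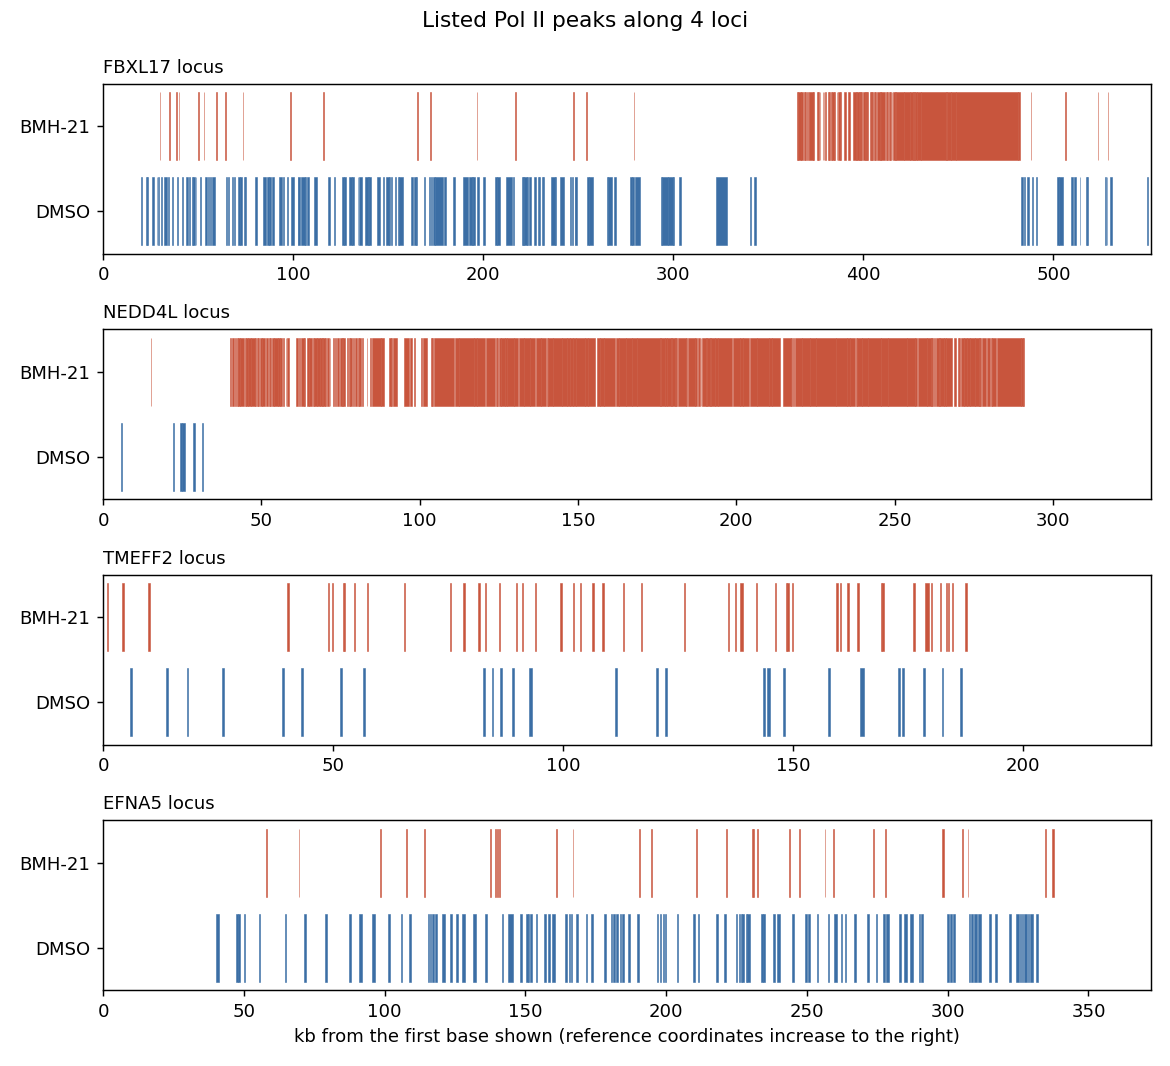
Listed DMSO and BMH-21 Pol II peaks along the FBXL17, NEDD4L, TMEFF2 and EFNA5 loci, in kb from the first base shown (x axis), each bar spanning 1 peak. At FBXL17 a dense BMH-21 run (80.8% covered) lies between 2 DMSO runs, at NEDD4L the BMH-21 run has 0 DMSO peaks inside, and at TMEFF2 and EFNA5 peaks of both lists are interspersed. Inside a dense run, DMSO peaks can lie only in gaps between BMH-21 peaks.

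At other loci, and in the lower DMSO run of FBXL17, peaks of both lists were interspersed. Counting changes of list between neighbours no more than 10 kb apart, EFNA5 and ZMIZ1 had the most, 41 each, of 59 and 51 that their numbers of peaks allow. A stretch with more peaks can have more changes, so this ranking favours stretches with many peaks. The EFNA5 stretch held 102 DMSO and 29 BMH-21 peaks over 298 kb, and the ZMIZ1 stretch 101 and 25 over 273 kb. USP9Y, a Y-linked deubiquitinase gene, followed with 36 of 61 possible changes (43 DMSO, 30 BMH-21 peaks, 122 kb). TMEFF2, a transmembrane protein gene expressed in prostate, had 35 of 45 (22 DMSO, 46 BMH-21 peaks, 149 kb), and the FBXL17 stretch 34 of 37. In these 5 stretches the BMH-21 peaks had median widths of 254 to 288 bp and covered 2.28% to 9.25%, against 397 to 761 bp and 6.55% to 40.7% for DMSO peaks. In TMEFF2 alone of the 5, BMH-21 peaks were the more numerous and covered more than DMSO peaks did. Stretches with 10 or more changes numbered 70.

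Runs of the 2 lists interlaced at 5 loci. Named after their values were seen, they were GULP1 on chromosome 2 (17 BMH-21 peaks, 18.0 kb shared with a DMSO run), TMEFF2 (46 peaks, 43.2 kb), NDRG1 on chromosome 8 (14 peaks, 40.1 kb), USP9Y (21 peaks, 49.99 kb) and an unnamed region of chromosome 2 at 181438882 to 181465516 (10 peaks, 26.6 kb). NDRG1 is an androgen- and stress-responsive gene, and GULP1 encodes an engulfment adaptor. At KDM4B, a histone demethylase gene on chromosome 19, the open BMH-21 run (12 peaks, 7.15% covered, with 7 DMSO peaks inside) lay between 2 DMSO runs, 2.13 kb from the lower and 3.21 kb from the upper. These BMH-21 runs were 7.15% to 17.9% covered and had top scores of 71.86 to 165.19, so none was of the dense kind.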

How the data were processed

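The 2 Pol II peak lists, DMSO and BMH-21, had 1 library each, and groups came from sample titles. The build (hg19) and 3 tools, Bowtie2 2.2.1, deepTools 3.5.4 and CASAVA 1.8.2, are named per the submitters' processing notes. Peak names begin with MACS. For the version and settings of that caller, its use of inputs and how listed peaks were selected, the entry is: not given in the sources used here. The deposited score column is headed as a p-value, but its values start at 50, so it was treated as the authors' score on an unstated scale. Starts were read as zero-based. Distances, gaps, runs and intervals were computed with Python 3.11.15, NumPy 2.4.6, pandas 2.3.3 and SciPy 1.17.1, plots with matplotlib 3.10.9. The distance and run code was tested on simulated data.

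Members, definitions and alternatives were chosen with earlier results of these data known. The rule for named regions took, per list, the 6 runs with the most peaks and the 5 widest peaks, then the 5 most alternating stretches and the 5 highest-scored BMH-21 peaks with a DMSO peak within 250 bp. Any other region in the text was picked with its values in view. Genes of runs were named from general knowledge of hg19 loci, and only the chromosome was checked in the RefSeq table. Of the 16 genes with dense BMH-21 runs, 12 had a strand in the RefSeq promoter table (GRCh38.p14). Counts at gene starts, preset gene lists and marker genes were not computed, as no hg19 annotation was used.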

Additional observations from a re-analysis of the deposited data

How the results depend on the processing

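Of 59 alternative values over 14 results, 27 stayed within the interval of the main share or within 1.5 times the main number and 32 did not. The sides of close pairs stayed within the interval of the main share under all 6 alternatives run. Keeping scores at or above the DMSO median gave 0.0694% of DMSO and 10.04% of BMH-21 peaks under 300 bp, 15.1% and 21.5% at 1000 bp or more, 6.43% of BMH-21 peaks within 1 kb of a DMSO peak, a median distance of 67644 bp, median gaps of 32789 bp (DMSO) and 9976 bp (BMH-21), and 57.1% of BMH-21 peaks followed by another. At that score wide peaks made a larger share of the BMH-21 list than of the DMSO list, and its median gap was the shorter one, both against the order in all peaks. The same cutoff kept a smaller part of the BMH-21 list than of the DMSO list, so unlike parts were compared. Scores of the 2 lists may also be on different scales. Outside runs, peaks under 300 bp made 4.07% and 69.1%, those of 1000 bp or more 6.74% and 0.706%, the share within 1 kb was 21.5%, median gaps were 25144 and 50336 bp, and 40.7% of BMH-21 peaks were followed by another. Leaving out only the 20 dense BMH-21 runs, an alternative added after seeing the data, gave 67.2% under 300 bp, 0.886% at 1000 bp or more, 21.3% within 1 kb, a median gap of 39685 bp and 36.7% followed by another. The share within 1 kb was 13.5% between peak centres, which adds part of each width to the distance, and 15.4% for BMH-21 peaks of at least 300 bp. With each DMSO neighbour counted once it was 17.8% of all BMH-21 peaks, and this count cannot exceed the main one. The median distance was 20576 bp for BMH-21 peaks of at least 300 bp. It was 3808 bp when only the closest BMH-21 peak of each DMSO neighbour was kept, which favours short distances. With peaks of at least 300 bp, 46.6% of BMH-21 peaks were followed by another. Runs of 20 or more peaks numbered 75 (DMSO) and 25 (BMH-21), and with gaps up to 20 kb there were 92 BMH-21 runs, with 29.3% of their summed length covered against 56.3%. Apart from effects of the construction itself, the cause was not tested. The alternative at gene starts was not run for lack of an hg19 annotation. No paired analysis was possible because each group had 1 sample. With read depth and caller settings unknown, differences in list length and in peak width cannot be told apart from differences in these.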
